A study of Saccharomyces cerevisiae with 6 samples.

Results

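The genes described here encode the enzymes of arginine, histidine, lysine, aromatic and branched-chain amino acid synthesis in Saccharomyces cerevisiae, together with the transcription factor gene GCN4. They were taken by gene symbol from a list of 43, and all 43 were measured, among 5449 genes tested. Each was read by 1 probe set, with no suffix for shared sequence. The study compared cells with wild-type histone H2A (3 arrays, replicates 1 to 3) and cells with H2A R78A (3 arrays, replicates 1 to 3), in which arginine 78 of the histone is replaced by alanine. Both groups were budding yeast grown at 30 °C in YPD, a rich glucose medium, to mid-log phase at an optical density of about 0.5 to 0.7, and total RNA was hybridised as biotin-labelled cRNA. The labels used here give no strain, mating type or further allele for either group, nor whether a replicate was a culture of its own. Spread between arrays, on which every p-value rests, may therefore be only technical.

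Gcn4 is a bZIP activator of amino acid biosynthesis genes. Its level is set mainly at translation: upstream open reading frames in the GCN4 leader keep synthesis of the protein low in well-fed cells, and the kinase Gcn2, sensing uncharged tRNA, relieves that block in starvation. Rich medium supplies amino acids, so the cells studied were not starved by design, and the mRNA signal of GCN4 does not report the amount of the protein. Neither binding of Gcn4 nor protein was measured, so the link of each gene to Gcn4 is background here and was not tested.

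Levels are probe set signals that the authors scaled so that every array has a trimmed mean of 500, and a level is therefore relative to the rest of its array. Over the genes tested, median signals were 409.6 to 411 in wild type and 420.2 to 438 in H2A R78A, while 10th percentiles were 90.2 to 102 and 121 to 135, and 90th percentiles were 1070.4 to 1106 and 997 to 1049.8. The mutant arrays thus had a narrower spread, with bright probe sets lower and dim ones higher. Many differences are therefore also given after quantile normalization, which gives all arrays 1 distribution. A difference given without that value describes the deposited scale only. As a check of cell type, the 6 a-cell genes, all above the 25th percentile of all genes, summed to signals of 6140 to 6746 in wild type and 5405 to 5578 in the mutant. In the limma fit 4 of the 6 were lower (66.7%, against 9.18% of all genes), and 4 were after quantile normalization (against 9.82%). The 4 genes of alpha cells summed to 452 to 473 and 615 to 660, and none was at 0. Of these 4, 3 were higher (75%, against 17.9% of all genes), all 3 with mean signals below the 25th percentile. After quantile normalization 2 were higher (50%, against 10.5%). The part of these changes in the results below was not tested.

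Amino acid synthesis genes moved in both directions in H2A R78A, and every change was small. In limma's moderated test, two-sided and adjusted by Benjamini-Hochberg over all genes tested, 6 of the 43 were higher at an adjusted p below 0.05 and 8 were lower. The higher ones were ARG3, ARG7, CPA1, LYS1, ARO3 and LEU4, and the lower ones were HIS1, HIS7, LYS12, ARO1, ARO2, ARO4, ILV3 and ILV5. None of the 43 differed by 1.5-fold or more, against 472 of all 5449 genes, and the largest difference was 1.40-fold. Of the 472, 470 were among the 4856 genes with a mean log2 signal at or below 10, where 30 of the 43 lay. The median log2 difference, H2A R78A minus wild type, was -0.11 over the 43 genes and 0.02 over all genes.

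Against the whole array these shares differed by direction. The 6 higher genes were 14.0% of the list, against 17.9% of all genes, and the 8 lower genes were 18.6%, against 9.18%. After quantile normalization 4 were higher (9.30%, against 10.5% of all genes) and 4 lower (9.30%, against 9.82%), so that both shares lay near the background. The scaling moved the split further, to 3 higher and 15 lower with array medians set equal, and to 5 higher and 2 lower with cyclic loess. Single arrays also mattered. The number higher was 3 without wild-type replicate 1, wild-type replicate 2 or mutant replicate 3, and 4 without each other array in turn. The number lower was 4 without wild-type replicate 1 or 2, and 3 without mutant replicate 1 or 3. It rose to 10 without wild-type replicate 3 and to 11 without mutant replicate 2. All genes called, 1476 in the main fit, ranged from 888 without mutant replicate 3 to 1686 without mutant replicate 2. The list is bright, and 13 of the 43 had a mean log2 signal above 10. All of these 13 had negative differences, as did 527 of the 593 genes that bright. Of the 13, 3 were called lower, which is 23.1%, against 29.2% lower and 1.35% higher among all genes that bright. Across the 43 genes mean log2 signal and difference correlated with a Pearson r of -0.59 (Spearman rho -0.56) on the deposited scale and -0.10 (rho -0.06) after quantile normalization. Over all genes r was -0.53 and -0.0012 (rho -0.54 and 0.06). Genes are not independent replicates, and the points share the same 6 arrays.

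**Figure D1:**
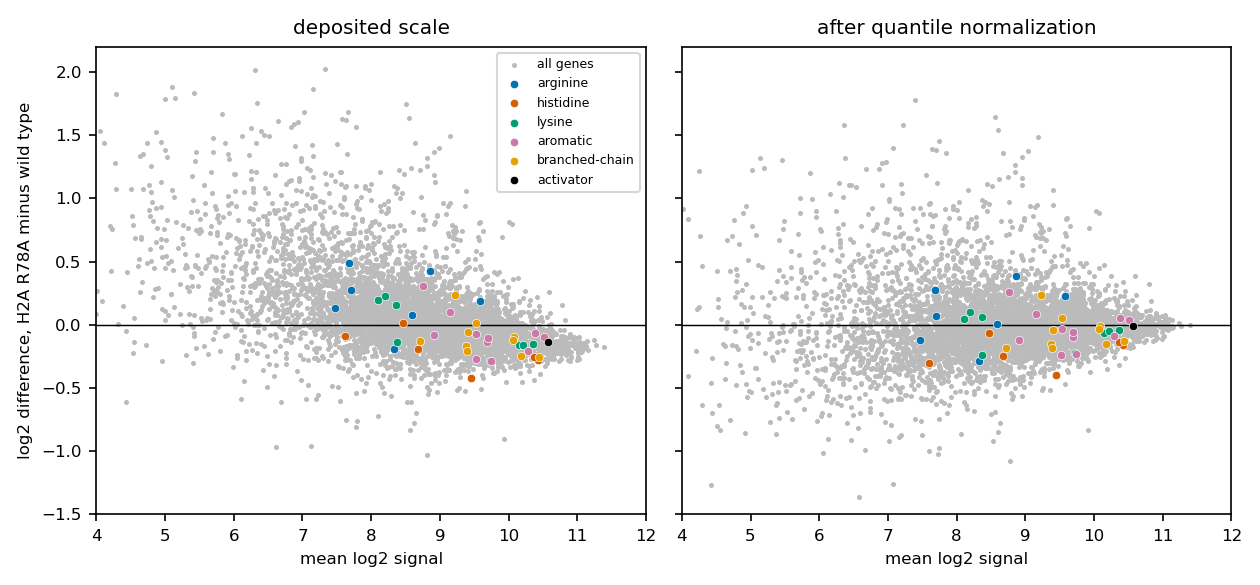
Mean log2 signal over the 6 arrays (x axis) against the log2 difference, H2A R78A minus wild type (y axis), for all genes (grey) and the 43 amino acid synthesis genes (coloured by pathway), on the deposited scale and after quantile normalization. On the deposited scale the bright genes lie below 0 and the brightest coloured points follow them; 33 and 35 of the 5449 genes fall outside the axes.

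Without overlap between the groups, 10 of the 43 genes were higher (23.3%, against 25.7% of all genes) and 15 lower (34.9%, against 17.4%). Same-numbered arrays of the 2 groups deviated together, so a second fit took the replicate number as a block. In it 7 were higher (16.3%, against 23.7% of all genes) and 16 lower (37.2%, against 15.7%). The 14 genes called without the block were all called with it. The 9 gained were ARG8, higher, and HIS2, HIS4, LYS9, LYS20, LYS21, TRP2, ILV6 and GCN4, lower. With quantile normalization added to the block, only HIS2 and HIS4 of these still passed (limma adjusted p = 0.0207 and 0.0471). Of the 13 members with a mean log2 signal above 10, 69.2% were lower with the block, against 54.0% of all genes that bright. The shared variation could be seen in single genes: replicate 2 was the highest array in both groups for 14 of the 43 genes, against 17.4% of all genes, and any 1 number was highest in both for 24, against 47.5%.

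**Figure D2:**
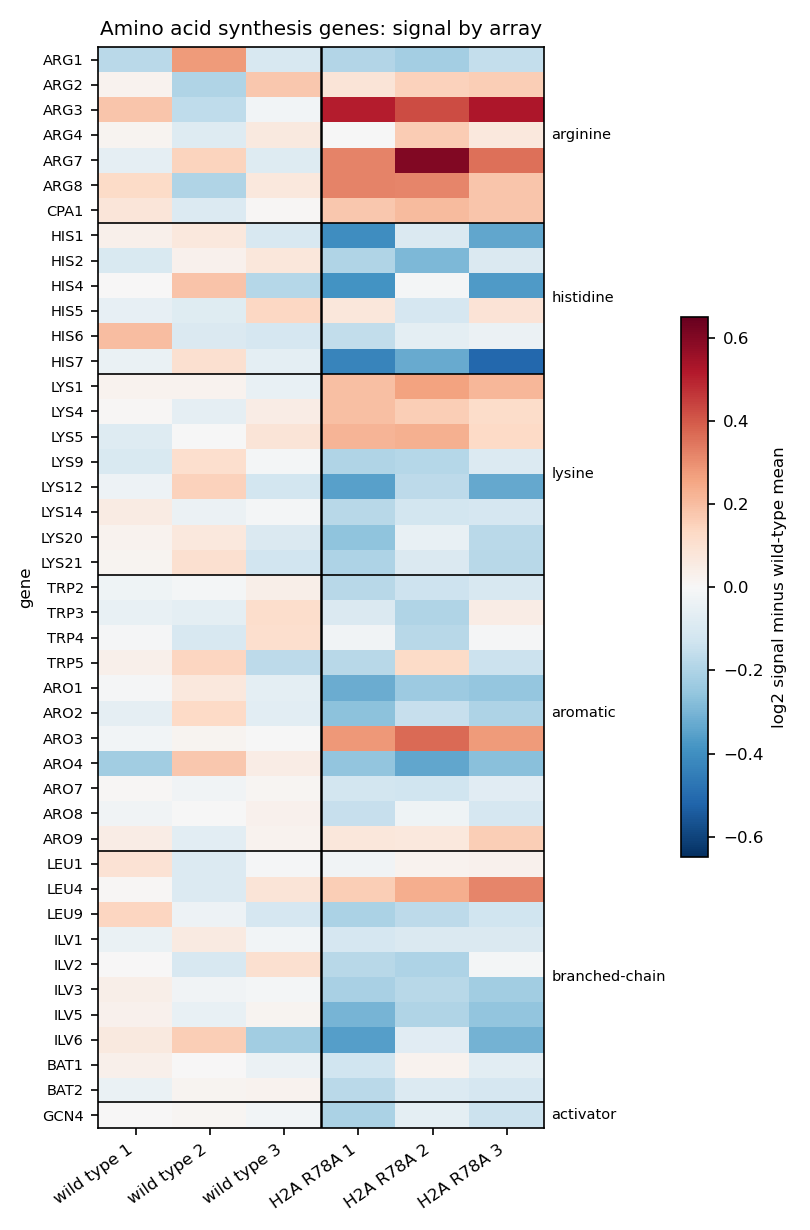
Log2 signal of the 43 genes on each of the 6 arrays, relative to the wild-type mean of the gene (colour scale), with genes in rows by pathway and wild-type arrays left of the line. ARG3 and ARG7 are red and HIS7 is blue on all 3 mutant arrays, while HIS1, HIS4 and ILV6 are palest, among the mutant arrays, on replicate 2.

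Arginine is built from glutamate through ornithine in mitochondria and then through citrulline in the cytosol. Of 7 genes 3 were higher and 0 lower (42.9% and 0%, against 17.9% and 9.18% of all genes), and 2 were higher and 0 lower after quantile normalization (against 10.5% and 9.82%). They had a median log2 difference of 0.19, or 0.07 after quantile normalization. ARG7 (YMR062C) encodes the mitochondrial ornithine acetyltransferase, which releases ornithine. Its signals were 385, 443 and 378 on the wild-type arrays and 501, 609 and 514 on the mutant arrays. All 3 mutant arrays were above all wild-type arrays, by 0.43 on the log2 scale (SE 0.09, limma adjusted p = 0.00759), and after quantile normalization by 0.39 (adjusted p = 0.0212). ARG3 (YJL088W), for ornithine carbamoyltransferase, which turns ornithine into citrulline, read 196, 154 and 170.4 in wild type and 246, 231 and 248 in the mutant. The groups did not overlap, and the log2 difference was 0.49 (SE 0.10, limma adjusted p = 0.00673). The ARG3 signal lies around the 25th percentile of all genes (232), and quantile normalization brought the difference to 0.28 (adjusted p = 0.053).

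CPA1 (YOR303W), for the small subunit of the carbamoyl phosphate synthetase of this pathway, read 758, 674 and 722 in wild type and 809.9, 826 and 812 in the mutant. Its log2 difference of 0.19 passed narrowly (SE 0.06, limma adjusted p = 0.0491), was 0.22 after quantile normalization (adjusted p = 0.0276), and did not pass when any array was left out (0.0542 to 0.131). ARG8, for acetylornithine aminotransferase, read 166 to 208 and 215 to 238 without overlap and passed only with the block (limma adjusted p = 0.0778, 0.0419 with the block). The other 3 genes did not pass in the main fit. ARG1, for argininosuccinate synthase, had the only negative difference of the 7 (-0.19, limma adjusted p = 0.232). After quantile normalization it was -0.29 (limma adjusted p = 0.090), and ARG1 passed as lower only with the block added to that normalization (0.0354). Wild-type replicate 2, at 418, stood above the other wild-type arrays (306 and 322), and the mutant arrays read 297 to 310.2. ARG4, for argininosuccinate lyase, and ARG2, for acetylglutamate synthase, had differences of 0.08 and 0.13 with overlapping groups, and that of ARG2 turned to -0.12 after quantile normalization.

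Of 6 histidine genes 2 were lower and 0 higher (33.3% and 0%, against 9.18% and 17.9% of all genes), and the median log2 difference of -0.22 was nearly as large after quantile normalization (-0.21). HIS7 (YBR248C) encodes imidazole glycerol phosphate synthase, whose by-product feeds purine synthesis. It read 791, 877 and 781 in wild type and 605, 649 and 572 in the mutant. The lowest wild-type array was above the highest mutant array, and the difference of -0.42 (SE 0.07, limma adjusted p = 0.00178) was the largest decrease of the 43 genes. It was -0.40 after quantile normalization (adjusted p = 0.0033), and the gene passed under all 17 alternatives run. ARO4 is the direct neighbour of HIS7 in the RefSeq gene order, the only such pair among the 43 genes, and was lower too.

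HIS1 (YER055C), for ATP phosphoribosyltransferase, the first and feedback-inhibited step, read 1555, 1596 and 1416 in wild type and 1148, 1427 and 1201 in the mutant. Mutant replicate 2 lay within the wild-type range. The difference of -0.28 (SE 0.08, limma adjusted p = 0.0302) was -0.16 after quantile normalization (adjusted p = 0.114), and it did not pass without wild-type replicate 1 or 2 or mutant replicate 1 or 3 (0.0911 to 0.108). HIS4 (YCL030C), a multifunctional enzyme gene long used to study Gcn4, read 1451, 1644 and 1274 in wild type and 1105, 1437 and 1123 in the mutant. The groups overlapped because mutant replicate 2 lay above wild-type replicate 3, and replicate 2 was the highest array in both groups. The log2 difference of -0.26 had a limma adjusted p of 0.109 without the block and 0.00422 with it, and each same-numbered pair was lower, by -0.39, -0.19 and -0.18. HIS2, for histidinol phosphatase, had a difference of -0.19 and passed with the block (limma adjusted p = 0.0487) and after quantile normalization (-0.25, 0.0499). HIS5, for histidinol phosphate aminotransferase, and HIS6, for the isomerase ahead of His7, had differences of 0.02 and -0.09 with overlapping groups, or -0.06 and -0.31 after quantile normalization.

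Of 8 lysine genes 1 was higher and 1 lower (12.5% each, against 17.9% and 9.18% of all genes), and limma called 0 after quantile normalization (2 at an unadjusted p below 0.05). The median log2 difference was -0.15, or -0.05 after quantile normalization. Lysine is made in fungi through homocitrate and aminoadipate. LYS12 (YIL094C), for homoisocitrate dehydrogenase, read 917, 1043 and 864 in wild type and 736, 833 and 745 in the mutant. The groups did not overlap, and the difference was -0.29 (SE 0.08, limma adjusted p = 0.0251), or -0.23 after quantile normalization (adjusted p = 0.0527). It did not pass without wild-type replicate 1 or 2 or mutant replicate 1 or 3 (0.0539 to 0.0916). LYS1 (YIR034C), for the saccharopine dehydrogenase of the last step, read 277, 277 and 263 against 311, 326 and 316. Its increase of 0.22 (SE 0.08, limma adjusted p = 0.0483) was 0.10 after quantile normalization (adjusted p = 0.408), and did not pass when any array was left out (0.0672 to 0.131). LYS4, for homoaconitase, and LYS5, for the phosphopantetheinyl transferase that activates Lys2, did not overlap between groups and had differences of 0.16 and 0.19 without a call. LYS14, the activator gene of the pathway, read 339 to 362 and 307 to 323 (-0.14, limma adjusted p = 0.185). After quantile normalization its difference was -0.24 (limma adjusted p = 0.0528), and it passed only with the block added to that normalization (0.0391). LYS9, for the other saccharopine dehydrogenase, had a difference of -0.16, or -0.04 after quantile normalization. It passed with the block but not in the main fit without it (limma adjusted p = 0.0958, 0.0401 with the block).

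Of the 11 aromatic genes 1 was higher and 3 lower (9.09% and 27.3%, against 17.9% and 9.18% of all genes), and 1 was higher and 1 lower after quantile normalization (9.09% each, against 10.5% and 9.82%). They had a median log2 difference of -0.10, or -0.06 after quantile normalization. The shikimate pathway runs from DAHP synthase to chorismate, from which tryptophan branches off on one side and phenylalanine and tyrosine on the other. At its entry the isozyme genes went opposite ways. ARO3 (YDR035W), for the DAHP synthase inhibited by phenylalanine, read 385, 395 and 389 in wild type and 474, 503 and 473 in the mutant. The wild-type arrays lay within 10 signal units of each other, all mutant arrays were higher, and the difference was 0.31 (SE 0.07, limma adjusted p = 0.00689), or 0.26 after quantile normalization (adjusted p = 0.0242). ARO4 (YBR249C), for the DAHP synthase inhibited by tyrosine, read 812, 1074 and 983 in wild type and 796, 752 and 787 in the mutant. Wild-type replicate 1 was close to the mutant arrays. The difference of -0.29 (SE 0.09, limma adjusted p = 0.0404) was -0.23 after quantile normalization (adjusted p = 0.0834), and it passed in only 1 of the 6 fits with an array left out, the one without wild-type replicate 1 (0.00443, against 0.0707 to 0.127).

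ARO1 (YDR127W) encodes the multifunctional enzyme of the steps after DAHP synthase. It read 811, 852 and 779.7 in wild type and 650.0, 691 and 685 in the mutant. The groups did not overlap, and the difference was -0.27 (SE 0.06, limma adjusted p = 0.0096), or -0.24 after quantile normalization (adjusted p = 0.0199). ARO2 (YGL148W), for chorismate synthase, read 1289.9, 1471 and 1280.3 against 1116, 1212 and 1169.5. Its decrease of -0.21 (SE 0.07, limma adjusted p = 0.0425) was -0.09 after quantile normalization (adjusted p = 0.225), and did not pass without the same 4 arrays as for LYS12 (0.0654 to 0.136). Past chorismate no gene passed in the main fit without the block. ARO7, for chorismate mutase, read 849.9 to 870.5 and 789 to 819.6 (-0.11, limma adjusted p = 0.171). TRP2, for anthranilate synthase, read 851 to 893 and 766 to 807, and passed with the block but not in the main fit without it (-0.14, limma adjusted p = 0.0905, 0.04997 with the block). The later tryptophan genes TRP3, TRP4 and TRP5 had differences of -0.08, -0.07 and -0.06 with overlapping groups, and that of TRP5, for tryptophan synthase, turned to 0.05 after quantile normalization. The aromatic aminotransferase genes ARO8 and ARO9 had differences of -0.10 and 0.10 without a call, and that of ARO8 turned to 0.04 after quantile normalization.

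Of the 10 branched-chain genes 1 was higher and 2 lower (10% and 20%, against 17.9% and 9.18% of all genes), and 1 was higher and 1 lower after quantile normalization (against 10.5% and 9.82%). The median log2 difference was -0.13, or -0.08 after quantile normalization. Valine, isoleucine and leucine share the mitochondrial enzymes of the ILV genes, and leucine then has its own branch. ILV5 (YLR355C), for acetohydroxyacid reductoisomerase, which also binds mitochondrial DNA, read 1552, 1472 and 1538 in wild type and 1233, 1326 and 1272 in the mutant. No mutant array reached a wild-type array, and the difference was -0.25 (SE 0.05, limma adjusted p = 0.00635), or -0.13 after quantile normalization (adjusted p = 0.0731). ILV3 (YJR016C), for dihydroxyacid dehydratase, read 740.2, 709.9 and 714 against 624, 636 and 617. Its groups did not overlap either, and the difference was -0.21 (SE 0.06, limma adjusted p = 0.0255), or -0.19 after quantile normalization (adjusted p = 0.0449). It did not pass without wild-type replicate 1 or mutant replicate 1 or 3 (0.0844 to 0.0976).

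Upstream in the same pathway, ILV2, the catalytic subunit gene of acetolactate synthase, and ILV6, its regulatory subunit gene, had differences of -0.13 and -0.25. ILV6 read 1319, 1411 and 1078 against 984, 1199 and 1019, with replicate 2 again highest in both groups. It passed with the block but not in the main fit without it (limma adjusted p = 0.0976, 0.0127 with the block). ILV1, for threonine deaminase, read 1089.7 to 1171 and 1040.5 to 1053 (-0.10, limma adjusted p = 0.194). In the leucine branch LEU4 (YNL104C), for the major isopropylmalate synthase, read 551, 515 and 581 in wild type and 612, 646 and 684 in the mutant. It was higher by 0.24 (SE 0.07, limma adjusted p = 0.0327), or by 0.23 after quantile normalization (adjusted p = 0.0454), but not past the threshold without wild-type replicate 1 or 2 or mutant replicate 3 (0.0822 to 0.138). LEU1, for the isopropylmalate isomerase, had a difference of 0.01.

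**Figure D3:**
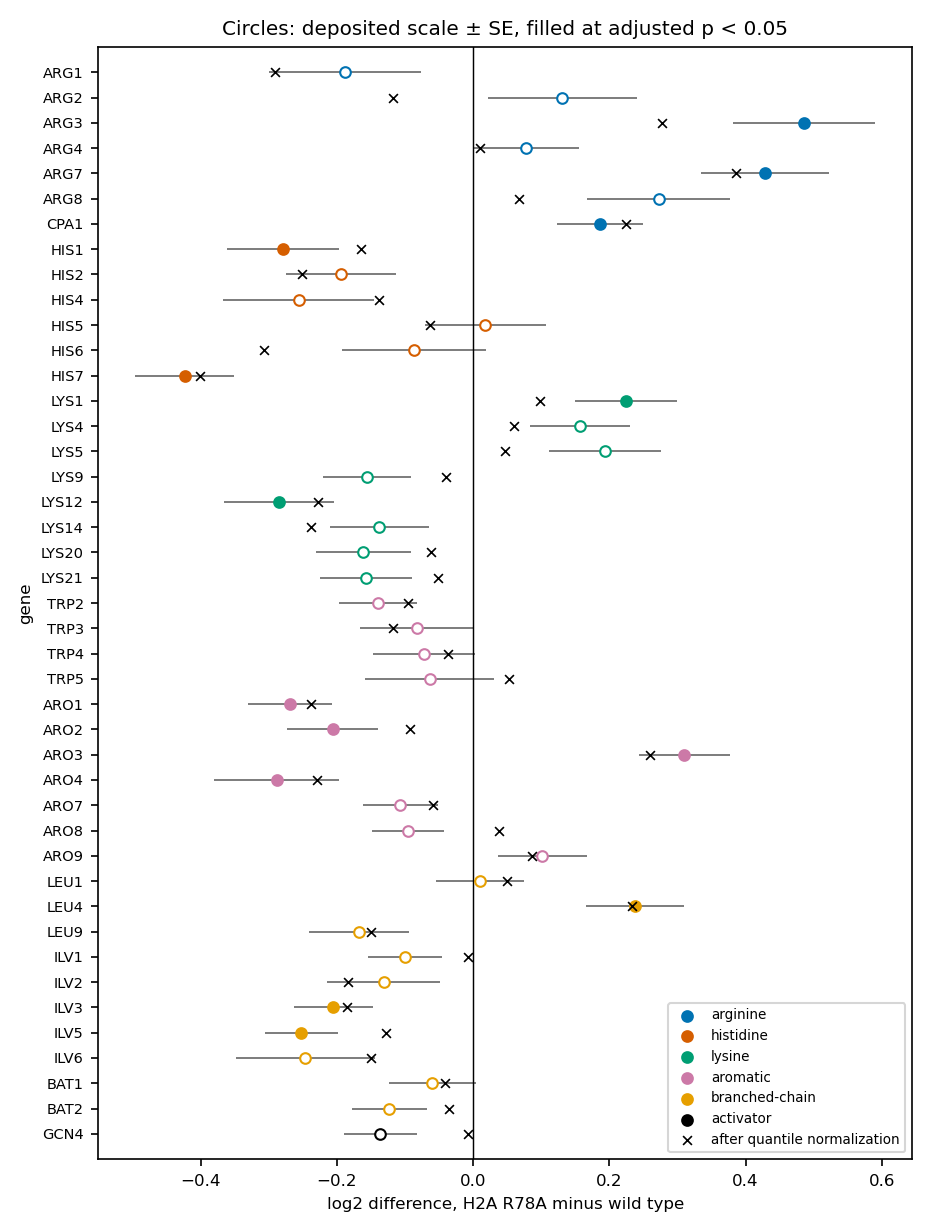
Log2 difference, H2A R78A minus wild type (x axis), of each of the 43 genes (y axis), as circles with standard errors on the deposited scale, coloured by pathway and filled where the limma adjusted p was below 0.05, and as crosses after quantile normalization. ARG7, HIS7, ARO1, ARO3, LEU4 and ILV3 keep much the same place on both scales, while bright genes such as GCN4 and LYS9 come close to 0 after normalization.

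GCN4 (YEL009C) itself was not called in the main fit. Its signals were 1598, 1606 and 1575 in wild type and 1382, 1523 and 1447 in the mutant. Every mutant array was below every wild-type array, but the difference was small, at -0.14 (SE 0.05, limma adjusted p = 0.0836). With the replicate block GCN4 passed as lower (limma adjusted p = 0.0325), as it did with median centring, with array weights and without mutant replicate 2. After quantile normalization the difference was -0.0073 (limma adjusted p = 0.912), and with cyclic loess it was 0.0054. Its size thus rests on the scaling, and cyclic loess turned its sign.

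For 5 pairs of isozyme genes the balance within each array was compared, as the log2 ratio of the first gene to the second. A ratio between probe sets has no meaning as a level, and only its change between groups was used. Relative to ARO4, ARO3 was higher in the mutant by 0.60 (SE 0.12), the ratio going from -1.29 ± 0.19 to -0.69 ± 0.09 (mean ± SD, n = 3). Relative to LEU9, the gene of the minor isopropylmalate synthase, which had a difference of -0.17 of its own, LEU4 was higher by 0.41 (SE 0.10), from -0.36 ± 0.17 to 0.04 ± 0.04. In neither pair did the groups overlap, and the changes were 0.49 and 0.38 after quantile normalization. ARO8 relative to ARO9 changed by -0.20 (SE 0.06), also without overlap, but by -0.05 after quantile normalization. Each of these pairs had p = 0.10 in an exact permutation test, two-sided, and p = 0.167 after adjustment over the 5 pairs, and 0.10 is the smallest p that 3 against 3 arrays allow.

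The homocitrate synthase genes kept their balance within the spread of the arrays. LYS20 read 1222, 1263 and 1127 against 1003, 1163 and 1067, and LYS21 read 1272, 1352 and 1153 against 1095, 1178 and 1109.8. Both differences were -0.16, or -0.06 and -0.05 after quantile normalization. Neither gene passed in the main fit without the block, and both did with it (limma adjusted p = 0.0361 and 0.0309) and with array weights. The ratio changed by -0.0040 (SE 0.04, exact permutation p = 1.0). The mitochondrial and cytosolic branched-chain aminotransferase genes BAT1 and BAT2 had differences of -0.06 and -0.12, neither called, and their ratio changed by 0.06 (SE 0.05, exact permutation p = 0.30). These values do not show that the 2 genes of a pair respond alike, since 3 arrays a group limit the precision.

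**Figure D4:**
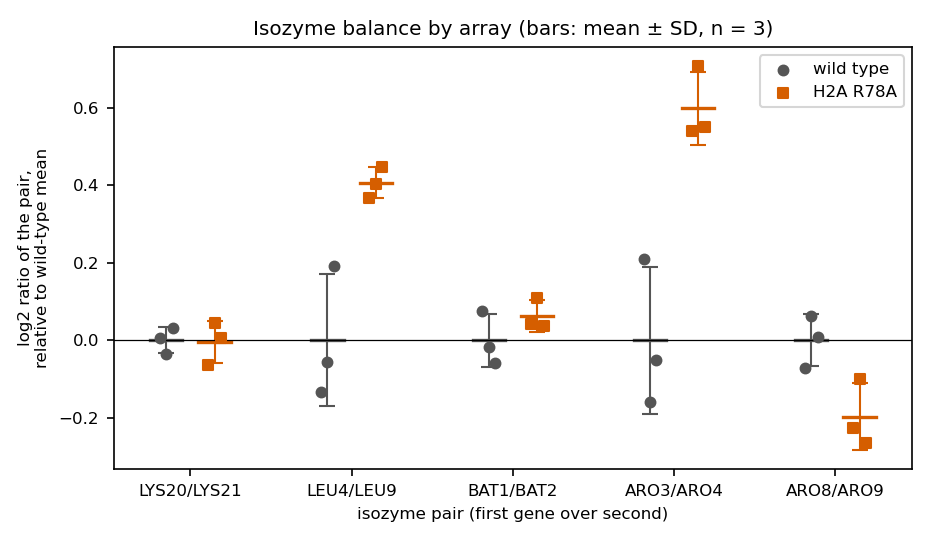
Log2 ratio of the first to the second gene of 5 isozyme pairs on each array, relative to the wild-type mean of the pair (y axis), with wild-type arrays as grey circles and H2A R78A arrays as orange squares, and bars for mean ± SD. All mutant points lie above the wild-type points for LEU4/LEU9 and ARO3/ARO4 and below them for ARO8/ARO9, and the groups overlap for the other 2 pairs.

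Steps of the same pathways outside the list were not called in the main fit. Of the 6 such genes analysed, 0 were higher or lower in limma (0 at an unadjusted p below 0.05). HIS3, LYS2 and LEU2, which serve as selection markers in many laboratory strains, read 1002 to 1064, 837 to 945 and 811 to 1129 in wild type and 1068 to 1076, 849 to 923 and 1041 to 1248 in the mutant. After quantile normalization 1 gene of the 6 (16.7%, against 9.82% of all genes), PHA2 of phenylalanine synthesis, was lower (-0.30, limma adjusted p = 0.0391). Its signal was below the 25th percentile of all genes. On the deposited scale its groups overlapped, with a difference of -0.09.

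The genes that control GCN4 translation had small differences without a call. All 13 (GCN1, GCN2, GCN3, GCN20, and genes of initiation factors and tRNA methylation) had negative log2 differences, as did 2486 of the 5449 genes tested. Their median was -0.13, or -0.11 after quantile normalization, when 12 were negative and SUI3, an initiation factor subunit gene, was at 0.04. None passed in limma, although 4 had an unadjusted p below 0.05, and 2 passed with the block, GCN2 (adjusted p = 0.0438) and GCN3 (0.0374). The number lower was 2 without wild-type replicate 2 or mutant replicate 2, 4 with median centring and 7 with array weights. The kinase gene GCN2 read 570.2 to 637 in wild type and 517 to 541 in the mutant. Of 13 coactivator genes that Gcn4 is known to recruit, 0 passed in limma (1 at an unadjusted p below 0.05), and the median was 0.03. After quantile normalization 1 of the 13 was lower (7.69%, against 9.82% of all genes). It was SWI1, a subunit gene of the SWI/SNF remodeller (-0.56, limma adjusted p = 0.00202). Its signal was below the 25th percentile of all genes, and its difference on the deposited scale was -0.25 (limma adjusted p = 0.107).

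Among 14 genes of pathway regulators and of Gcn4 turnover, 4 were higher and 0 lower (28.6% and 0%, against 17.9% and 9.18% of all genes). After quantile normalization 1 was higher and 1 lower (7.14% each, against 10.5% and 9.82% of all genes). The lower gene was GLN3, a nitrogen-regulated activator gene below the 25th percentile of signal (-0.56, limma adjusted p = 0.00662). ARO80 (YDR421W), the activator gene of aromatic amino acid catabolism, read 459, 447 and 405 in wild type and 590.2, 563 and 578 in the mutant. All mutant arrays were higher, by 0.40 (SE 0.07, limma adjusted p = 0.00215), or by 0.37 after quantile normalization (adjusted p = 0.00486). ARO9, a target of Aro80, differed by only 0.10, and ARO10, the decarboxylase gene that Aro80 also controls, by 0.23 (limma adjusted p = 0.0629, 0.032 with the block). The other 3 higher regulators were PHO2 (a homeodomain activator), RTG1 (a bHLH factor of retrograde signalling) and ARG82 (inositol polyphosphate multikinase), with differences of 0.60, 0.81 and 0.40. Their signals did not exceed 197 on any array, and after quantile normalization none of the 3 passed (adjusted p from 0.218 to 0.422). Without wild-type replicate 2 or without mutant replicate 1 or 3, 2 of the 14 were higher.

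Synthesis genes of other amino acids were mostly lower on the deposited scale. Of 16 genes 10 were lower and 1 higher (62.5% and 6.25%, against 9.18% and 17.9% of all genes), with a median log2 difference of -0.20. Most of the 10 had a mean log2 signal above 10, where 29.2% of all genes were lower. After quantile normalization 1 was lower and 1 higher (6.25% each, against 9.82% and 10.5% of all genes), with a median of -0.10. The number lower was 3 to 9 when an array was left out. It was 3 without mutant replicate 3, 4 without wild-type replicate 1 and 5 without wild-type replicate 2 or mutant replicate 1. Both genes of the glutamate-forming dehydrogenases were called. GDH1 (YOR375C), the main isoform on glucose, read 996, 1038 and 1059.6 in wild type and 851, 776 and 868 in the mutant (-0.31, SE 0.06, limma adjusted p = 0.00462, and -0.24 after quantile normalization, 0.0256). GDH3, its glucose-repressed counterpart, read 76.5, 53.4 and 63.4 and then 124, 119 and 105, and rose by 0.86 (SE 0.15, limma adjusted p = 0.00197), or by 0.45 after quantile normalization (0.0282). Its signals were below the 25th percentile of all genes, and no gene of the list was higher with low values raised or under the background filter, which removes GDH3. ASN1, for asparagine synthetase, read 1801 to 2032 and 1473 to 1684, and its decrease of -0.27 (limma adjusted p = 0.0125) was -0.12 after quantile normalization (0.111).

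Amino acid breakdown genes had a median absolute log2 difference of 0.45, against 0.16 for the 43 synthesis genes, a difference that was not tested. Of 9 genes 6 were higher and 2 lower (66.7% and 22.2%, against 17.9% and 9.18% of all genes). The groups overlapped for none, against 43.1% of all genes without overlap. The median log2 difference was 0.45, or 0.36 after quantile normalization. In that fit 5 were higher and 1 lower (55.6% and 11.1%, against 10.5% and 9.82% of all genes). PUT1 (YLR142W), for proline oxidase, read 286, 398 and 319 in wild type and 594, 492 and 602 in the mutant, a difference of 0.76 (SE 0.12, limma adjusted p = 0.00127). CAR2 (YLR438W), for ornithine aminotransferase, read 139.9, 70.6 and 107 and then 225, 192 and 202, a difference of 1.02 (SE 0.20, limma adjusted p = 0.00435). These remained 0.72 and 0.73 after quantile normalization (adjusted p = 0.00273 and 0.0133). PUT4, the proline permease gene, rose by 0.90 at dim signals of 26.4 to 65.2 (limma adjusted p = 0.00275, 0.0572 after quantile normalization). The other 3 higher genes, named after their values were seen, were PUT2 (the next step of proline breakdown), PDC5 (a pyruvate decarboxylase that also acts on amino acid keto acids) and GDH2 (the glutamate-degrading dehydrogenase), with differences of 0.42, 0.70 and 0.45. CAR1, for arginase, which acts just before Car2, was lower instead (864 to 926 and 717 to 807, -0.25, limma adjusted p = 0.017), as was CHA1, for serine and threonine deaminase (-0.20, 0.0231). Neither CAR1 nor CHA1 passed without wild-type replicate 1 or 2 or mutant replicate 1 or 3, with adjusted p up to 0.0738 and 0.101, although every same-numbered pair was lower. With low values raised, 3 were higher.

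**Figure D5:**
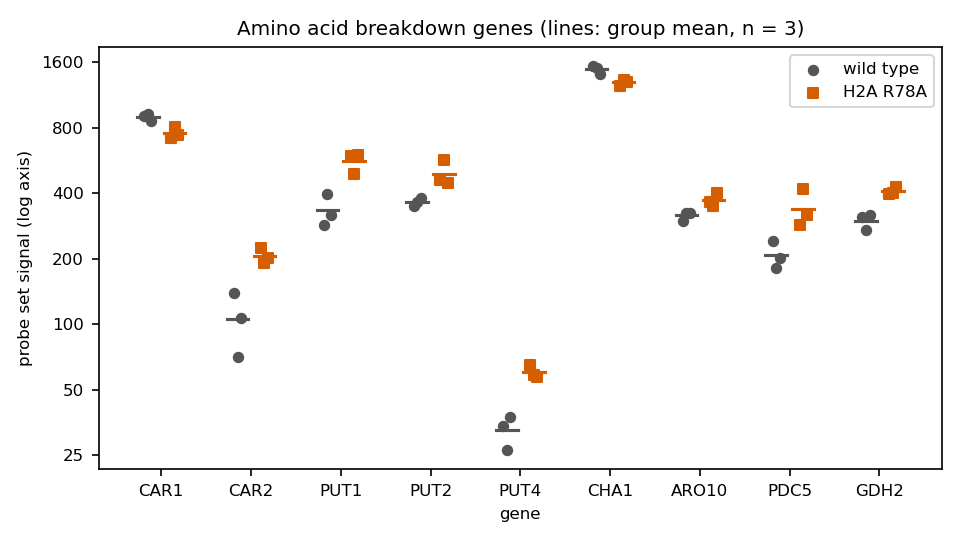
Probe set signal on a log axis (y) of 9 amino acid breakdown genes (x) on the 3 wild-type arrays (grey circles) and the 3 H2A R78A arrays (orange squares), with lines at group means. The mutant arrays lie above the wild-type arrays for all genes except CAR1 and CHA1, which lie below.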

How the data were processed

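The 6 samples are one-colour Affymetrix arrays of yeast RNA. The deposited values are probe set signal intensities on a linear scale, with a mean of 500 on each array after 2% was trimmed at each end; MAS5 and limma are named in the submitters' processing notes, with versions not given in the sources used here. Of 5900 probe sets 5498 were paired with 1 gene each, 12 symbols were updated through gene IDs, and the brightest probe set stood for each of 47 genes with several, leaving 5449 genes. All deposited columns were used. Detection calls and scanner files were not used here, no sequence was used, and the arrays' number limits the precision.

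Log2 signals were compared across all genes with limma 3.58.1 in R 4.3.3 (two-sided moderated test with a variance trend on intensity, Benjamini-Hochberg adjustment over all genes, threshold 0.05). Values are means ± SD. Same-numbered arrays deviated together from their group means (r = 0.206, 0.383 and 0.427 across genes), so the replicate number was also fitted as a block. For arrays of different numbers r was -0.449 to 0.154, so the pairing is weakest for replicate 1. What the number stands for is not given. The limma step was also run on simulated data with independent noise for each array. That run held neither the shared replicate deviations nor the narrower mutant spread, so it cannot give error rates for these data. Lists were summarised by counts and medians, without set tests. Isozyme ratios were compared by exact permutation.

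The members and lists were chosen with earlier results of these data known. Named by rule were GCN4, members past the threshold, isozyme pairs, the extreme members of each pathway, and up to 3 called genes of each other list; further genes were chosen after their values were seen. Alternatives were quantile normalization, cyclic loess, median centring, a filter at the 25th percentile of mean signal, raising of values below the 10th percentile, averaging of a gene's probe sets, limma without a trend, robust limma, array weights, the block, the block with quantile normalization, each array left out, and thresholds of 0.01 and 0.1. A planned search for the Gcn4 motif was not run. Figures were drawn with matplotlib 3.10.9.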

Additional observations from a re-analysis of the deposited data

How the results depend on the processing

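The count of higher members (6) became 3 with median centring, the background filter or raised low values and at a threshold of 0.01, and ranged from 3 to 4 when an array was left out. The count of lower members (8) became 4 after quantile normalization, 2 with cyclic loess, 15 with median centring, 4 without an intensity trend, 13 with array weights, 16 with the replicate block, 3 at a threshold of 0.01 and 13 at 0.1, and ranged from 3 to 11 when an array was left out. The median difference of the members (-0.11) was -0.04 with cyclic loess and -0.17 with median centring, and stayed negative under every alternative run. The count of all genes called (1476) became 811 under the background filter, 912 with low values raised and 2260 with array weights, and ranged from 888 to 1686 when an array was left out. No called gene changed sign, although raising low values set the differences of RTG1 and PUT4 to 0. Among the uncalled genes named, the differences of ARO8, TRP5, SUI3, ARG2 and HIS5 turned to 0.038, 0.053, 0.043, -0.12 and -0.063 after quantile normalization, with and without the replicate block, and to 0.041, 0.061, 0.054, -0.081 and -0.042 with cyclic loess, which also turned GCN4 (0.0054). Median centring turned HIS5 (-0.042), LEU1 (-0.049), HIS3 (-0.0036) and LYS2 (-0.051), and array weights LEU1 (-0.030) and SUI3 (0.021). With an array left out, HIS5 ranged from -0.023 to 0.084, HIS6 from -0.14 to 0.014, TRP5 from -0.16 to 0.0048, LEU1 from -0.035 to 0.058, SUI3 from -0.10 to 0.084 and LYS2 from -0.030 to 0.058. The cause was not tested in any of these cases. HIS7, ARO1 and ARO3 passed under all 17 alternatives that refit the arrays, ARG7 under 16, the exception being low values raised, and ARG3 under 15 of 16. The replicate block ended no member's call. Dim probe sets limit ARG3, ARG2, ARG8 and HIS6, whose mean signals were below the 25th percentile. The Gcn4 motif search was not run for want of promoter sequence, and averaging a gene's probe sets left every member's difference as it was.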
